A study of Mus musculus with 12 samples.

Results

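Granulosa cells of mice that lack exon 6 of Snf2l (Ex6DEL) were compared with those of wild-type (WT) littermates just before the ovulatory hormone was given. The comparison rests on 6 expression arrays, 3 Ex6DEL and 3 WT, all of the time point called 0 h. Genes were chosen for description by level alone: of 18194 genes fitted, the 9097 whose mean log2 value over these 6 arrays was above the median of all genes, 4.79. The values nearest to that limit were 4.7945 inside and 4.7939 outside. Of the 9097 genes, 189 have predicted or unnamed symbols and are counted but not named.

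Females of 24 to 26 days of age were injected with 5 IU of pregnant mare serum gonadotropin (PMSG), a hormone with follicle-stimulating activity, and the cells were collected 48 h later by puncture of single follicles. The other 6 arrays of the series come from mice given in addition 5 IU of hCG (human chorionic gonadotropin), a hormone that stands in for the luteinizing hormone (LH) surge, with collection 4 h after it. The labels give each array as a pool of 5 mice and elsewhere count 5 mice per group, and leave unsaid whether replicate arrays had pools of their own. The p-values therefore measure the spread between arrays, which may be technical. The Ex6DEL line came from a cross of mice with a loxP-flanked exon 6 of Snf2l, developed on 129Sv, with a ubiquitously expressed Gata-1 Cre transgene on CD-1. The deletion then passed through the germline and the line was kept without Cre on 129SV, so that the deletion is carried by every cell type and not by granulosa cells alone.

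Snf2l, now named Smarca1, is one of a pair of ATPases that drive the ISWI chromatin remodellers, which slide and space nucleosomes. Granulosa cells line the ovarian follicle, respond to follicle-stimulating hormone, make estradiol and inhibin, and exchange signals with the oocyte through gap junctions and secreted factors of the TGF-beta family. After PMSG they are at the preovulatory stage, which normally precedes the LH response. The series title names superovulation and Fgl2 as the subjects of the study, and the present comparison asks how the genotypes compared before the ovulatory signal.

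The arrays of a group were not alike, and this bears on every result. Across the 9097 genes, which are not independent replicates, Ex6DEL replicate 1 correlated with the other Ex6DEL arrays at 0.871 and 0.889, while the WT arrays correlated among themselves at 0.918 to 0.964. In Ex6DEL replicate 1, 2749 genes lay more than 1 log2 unit from the mean of the other arrays of its group, against 368 to 1789 genes in the other arrays of 0 h. Ex6DEL replicate 3 had its highest correlation, 0.958, with an array collected 4 h after hCG. Its mean over 23 immediate early genes was 10.87, against 7.29 and 7.43 in the other Ex6DEL arrays. WT replicate 1 stood at 8.88 on the same measure, against 6.83 and 7.29 in the other WT arrays. Mean levels of 13 theca and stroma markers were 11.43 in Ex6DEL replicate 1, 9.47 and 8.69 in the other Ex6DEL arrays, and 8.16 to 9.42 in WT.

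No gene above the median level differed between the genotypes at a limma adjusted p under 0.05, so 0% were called. At an unadjusted p under 0.05 there were 357 genes, of which 238 (2.62%) had the higher mean in Ex6DEL and 119 (1.31%) the lower. This split reversed to 143 higher and 286 lower under quantile normalization, to 116 and 283 without WT replicate 1, and to 200 and 240 without Ex6DEL replicate 1. All 3 Ex6DEL arrays lay above all 3 WT arrays for 632 genes (6.95%) and below them for 229 genes (2.52%). Among the genes without overlap, those with the largest differences in mean included oocyte genes and the proteases Masp1 and Mmp2 on the higher side. On the lower side they were genes of varied function. Of the 12 with the largest differences there, 11 were farthest from WT in Ex6DEL replicate 1, counting Hdac11, where replicate 2 had the same value. The gap between the groups was 0.147 to 1.54 in the 12 higher and 0.033 to 0.765 in the 12 lower genes. A difference over 1 log2 unit was present in 328 genes on the higher side, 171 of them without overlap, and in 107 genes on the lower side, 51 of them without overlap. The median within-group SD of a gene was 0.50.

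The direction of these counts moved with the level of the genes, with the scaling and with single arrays. The median difference over the 9097 genes was 0.20, with the middle part of the genes between -0.07 and 0.47, and 69.3% had a positive difference. In 4 equal bins of genes from low to high level the median was -0.017, 0.090, 0.22 and 0.50. Higher without overlap were 66, 90, 125 and 351 genes of these bins, which held 2274 or 2275 genes each. Lower without overlap were 132, 57, 15 and 25. After quantile normalization the medians of the same bins were -0.011, -0.019, -0.024 and -0.064, and the median of all moved by -0.23 to -0.029. The genes without overlap were then 248 on the higher and 490 on the lower side, so 33.6% were higher in place of 73.4%. With the arrays only shifted to one median, which moved the median difference by -0.15, the higher side held 585 and the lower side 440 genes (57.1% higher). Differences below are therefore read against the 0.20 of all genes, and the quantile-normalized median is given with each gene list. That baseline itself moved with 1 array: without WT replicate 1 the median of all genes was 0.054, and 764 genes on the higher and 855 on the lower side (47.2% higher) were without overlap.

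**Figure D1:**
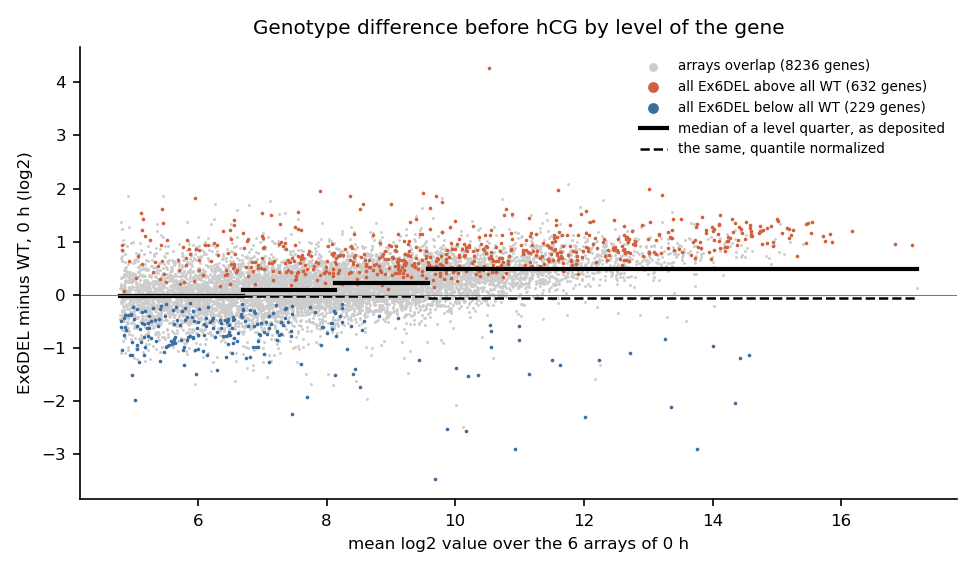
Difference between Ex6DEL and WT at 0 h (log2, y axis) against the mean log2 value over the 6 arrays (x axis) for the 9097 genes above the median level. Orange points (632 genes) have all Ex6DEL arrays above all WT arrays and blue points (229 genes) the reverse; solid bars are the medians of the 4 level bins, which climb from -0.017 to 0.50, and dashed bars the same after quantile normalization, which lie between -0.064 and -0.011.

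Smarca1, the targeted gene, was measured by 1 probe set. Its log2 values were 10.31, 11.10 and 10.75 in the WT arrays and 10.96, 10.61 and 10.70 in the Ex6DEL arrays. The groups overlapped fully. The difference was 0.04 (SE 0.24, 95% interval -0.60 to 0.68, limma adjusted p = 1), and its sign turned to -0.49 under quantile normalization and to -0.11 with the arrays shifted to one median. The place of the probe set with respect to exon 6 was not analysed here, and the value is therefore no check of the genotype.

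The other 12 ISWI genes above the median level were described beside it. Over the 13 members the median difference was 0.31 and 9 were positive. None separated the groups, a count too close to the 6.95% (higher) and 2.52% (lower) of all genes to be read. The median of the 13 turned to -0.16 under quantile normalization and was 0.11 without Ex6DEL replicate 1. Smarca5, the other ISWI ATPase, had values of 10.76, 11.59 and 11.96 in WT and 10.97, 11.73 and 12.19 in Ex6DEL, which overlapped throughout (difference 0.19, SE 0.48). The largest differences belonged to Rbbp7 (1.04, SE 0.44) and Rbbp4 (0.81, SE 0.51), histone-binding subunits that ISWI shares with other complexes, and both turned negative under quantile normalization (-0.016 and -0.16). The accessory subunits Baz1b and Baz2b had differences of 0.65 (SE 0.38) and 0.60 (SE 0.42). None of the 13 genes had an unadjusted p under 0.05.

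Of 26 remodeller genes outside the ISWI family, 20 were positive, with a median of 0.31 (0.034 quantile normalized), which turned to -0.018 without WT replicate 1. Chd4, the ATPase of the NuRD complex, had 9.31, 9.54 and 9.68 in WT and 9.72, 9.91 and 9.74 in Ex6DEL. The groups did not overlap, but the difference was only 0.28 (SE 0.12, adjusted p = 0.894), and it turned to -0.077 under quantile normalization. Chd9, a related ATPase, was higher by 0.69 (SE 0.30), also without overlap. Arid1b, a subunit of BAF complexes, had a difference of -0.39 (SE 0.17), with every Ex6DEL array below every WT array. None of these 26 genes was called. Without overlap were 3 on the higher side (11.5%, against 6.95% of all genes) and 1 on the lower side (against 2.52%). These counts are too small to be read.

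Fgl2, the gene of the series title, encodes a fibrinogen-like protein with prothrombinase activity, and its mean level lay below the limit used here. Its values were 4.81, 3.16 and 3.15 in WT and 7.92, 3.20 and 3.82 in Ex6DEL. Only Ex6DEL replicate 1 lay above all WT arrays. The difference was 1.27 (SE 1.49, adjusted p = 0.902) and turned to -0.20 without that array. Of 8 other coagulation and fibrinogen-like genes above the level, 7 were positive with a median of 0.66 (0.31 quantile normalized, 0.24 without Ex6DEL replicate 3). Plat, the tissue-type plasminogen activator, was higher by 0.78 (SE 0.34) and Thbs1, which encodes the matrix protein thrombospondin, by 0.74 (SE 0.53), with overlapping arrays. F10, coagulation factor X, went the other way and is given with the largest lower differences.

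The smallest p-values belonged to Metrn and Dot1l, with differences under 1 log2 unit and very small spread. Other genes with small p-values had larger differences, such as Bzw2 (1.61) and Zfp729a (-1.50). The following 4 genes were chosen after their values were seen. Metrn, which encodes the secreted factor meteorin, had 7.70, 7.62 and 7.60 in WT and 6.88, 6.88 and 6.87 in Ex6DEL. Ex6DEL replicates 1 and 2 had the same value, 6.8809, so the small spread rests in part on a tie. The cause of the tie was not tested. The difference was -0.76 (SE 0.03, limma adjusted p = 0.0778), the smallest of all genes. Dot1l, the histone H3 lysine methyltransferase, had 8.67, 8.62 and 8.55 in WT and 9.30, 9.28 and 9.31 in Ex6DEL (difference 0.68, SE 0.04, adjusted p = 0.0801).

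A second Dot1l probe set read 6.36, 5.82 and 6.26 in WT and 8.66, 7.04 and 7.51 in Ex6DEL, again without overlap. The second Metrn probe set lay at the floor of 2.21 in all 6 arrays. Slc25a3, the mitochondrial phosphate carrier, differed by 0.98 (SE 0.06, adjusted p = 0.161), and the sign turned to -0.14 under quantile normalization. Mro, a gene of the preovulatory list, had 4.90, 4.51 and 4.94 in WT and 6.23, 6.06 and 6.13 in Ex6DEL, the most even separation among the listed genes (difference 1.36, SE 0.14, adjusted p = 0.486). It kept its size under quantile normalization, at 1.34. At an adjusted p under 0.1 Metrn and Dot1l alone would have been called among the genes above the level. Metrn was called without WT replicate 1 (adjusted p = 0.0374), and with array weights both were called (0.0134 and 0.0332). Without WT replicate 3 there were 6 calls, among them these 2 genes and Slc25a3. Other settings gave no call. The smallest limma adjusted p of any gene above the level was 0.0604 under quantile normalization. It rose to 0.269 with all 12 arrays in one fit, 0.817 with arrays shifted to one median and 0.932 with only genes above the level fitted.

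The genes with the largest differences among those without overlap were led by Rps9, Masp1 and Erdr1 on the higher side. Rps9, a protein of the small ribosomal subunit, read 10.51, 6.98 and 7.69 in WT and 12.05, 13.15 and 12.82 in Ex6DEL (difference 4.28, SE 1.06, adjusted p = 0.894). That probe set is of the kind whose probes can match other sequences, marked _x_at by the manufacturer. The other Rps9 probe sets above the level differed by 0.26 and 0.95, with overlap in each. Erdr1, a gene at the end of the X chromosome, was also read by an _x_at probe set and had 10.39, 10.86 and 10.57 in WT and 13.04, 12.95 and 11.72 in Ex6DEL (difference 1.96, SE 0.42).

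Masp1, a serine protease of the lectin pathway of complement, and Nedd4, a ubiquitin ligase, separated the groups in several probe sets. Masp1 read 11.85, 11.72 and 12.49 in WT and 15.21, 13.37 and 13.48 in Ex6DEL (difference 1.999, SE 0.60). Of its 3 other probe sets above the level, all were positive and 2 separated the groups. Nedd4 read 12.32, 11.99 and 12.49 in WT and 14.85, 14.03 and 13.57 in Ex6DEL (difference 1.88, SE 0.38). Its other 2 probe sets, at differences of 0.91 and 0.96, separated the groups as well. Under quantile normalization the differences were 1.13 for Masp1 and 1.005 for Nedd4, and without Ex6DEL replicate 1 they were 1.41 and 1.53.

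Mmp2, the matrix metalloproteinase gelatinase A, read 7.48, 6.82 and 6.48 in WT and 10.37, 8.21 and 8.06 in Ex6DEL (difference 1.95, SE 0.76). Its second probe set differed by 1.79, without overlap. Pvr, the poliovirus receptor homolog CD155, had 9.03, 8.45 and 8.17 in WT and 11.16, 9.64 and 10.58 in Ex6DEL (difference 1.91, SE 0.48). Another Pvr probe set differed by 3.33, without overlap, and a further one by 0.23, with overlap. Shmt1, the cytosolic serine hydroxymethyltransferase of folate metabolism, had 7.76, 7.15 and 7.39 in WT and 10.84, 8.37 and 8.69 in Ex6DEL (difference 1.87, SE 0.75), while its other probe sets above the level differed by -0.13 and 0.03. Pmepa1, an inhibitor of TGF-beta signalling, read 5.57, 4.71 and 4.83 in WT and 6.72, 6.33 and 7.56 in Ex6DEL (difference 1.83, SE 0.43). It was the member of these 12 that was highest in Ex6DEL replicate 3. Without Ex6DEL replicate 1 the difference was 1.21 for Mmp2, 1.10 for Shmt1, 1.56 for Pvr and 1.91 for Pmepa1.

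The last 4 of the 12 were genes of the oocyte. They were Zp3 and Zp2, which encode proteins of the zona pellucida, the coat of the egg, Obox2, an oocyte homeobox gene, and Nlrp5, a maternal-effect gene. Obox2 belongs to a family of near-identical copies that its _x_at probe sets may not tell apart. Its values were 8.26, 7.66 and 8.51 in WT and 10.68, 9.49 and 9.39 in Ex6DEL (difference 1.71, SE 0.46), and a second probe set differed by 1.47, without overlap. The remaining 3 are described with the oocyte markers below.

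**Figure D2:**
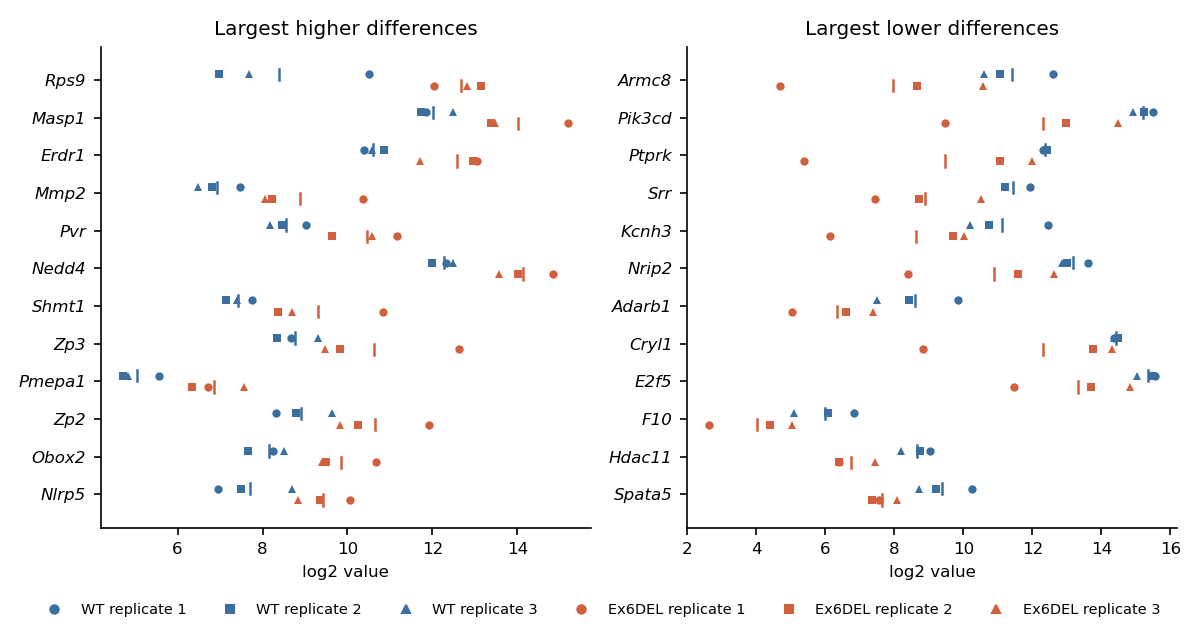
Log2 values (x axis) in each of the 6 arrays of 0 h for the 12 genes with the largest positive (left) and the 12 with the largest negative (right) differences among genes whose arrays did not overlap. WT arrays are blue and Ex6DEL arrays orange, the marker shape gives the replicate number and vertical ticks the group means. Ex6DEL replicate 1 (orange circles) lay farthest from the WT mean in 10 of the 12 higher and 11 of the 12 lower genes. The latter count includes Hdac11, where replicate 2 had the same value.

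The 12 largest differences on the lower side ran from -3.45 to -1.74. Armc8, a subunit of a ubiquitin ligase complex, read 12.60, 11.06 and 10.60 in WT and 4.68, 8.65 and 10.57 in Ex6DEL (difference -3.45, SE 1.74). The gap between the lowest WT and the highest Ex6DEL array was 0.033. Its other probe sets above the level differed by -0.18 and 0.06. Pik3cd, a catalytic subunit of phosphoinositide 3-kinase, read 15.49, 15.22 and 14.90 in WT and 9.46, 12.98 and 14.49 in Ex6DEL (difference -2.90, SE 1.42), and its other probe set above the level had a difference of 0.70. Ptprk, a receptor tyrosine phosphatase, had 12.31, 12.43 and 12.38 in WT and 5.39, 11.07 and 11.99 in Ex6DEL (difference -2.89, SE 1.95). Without Ex6DEL replicate 1 these differences were -1.81, -1.47 and -0.85.

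The same order, replicate 1 lowest and replicate 3 nearest to WT, was seen in Srr, Kcnh3, Nrip2, Adarb1, Cryl1, E2f5 and F10. Srr, which encodes serine racemase, had 11.92, 11.21 and 11.20 in WT and 7.45, 8.71 and 10.51 in Ex6DEL (difference -2.55, SE 0.87). Cryl1, lambda-crystallin, had 14.36, 14.49 and 14.38 in WT and 8.83, 13.75 and 14.32 in Ex6DEL (difference -2.11, SE 1.65), and -0.38 remained without Ex6DEL replicate 1. The other 5 genes had differences from -2.52 (Kcnh3, a potassium channel) to -1.98 (F10), with Nrip2, a nuclear receptor interactor, at -2.29, Adarb1, an RNA editing enzyme, at -2.25 and E2f5, a transcription factor of the cell cycle, at -2.02.

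Hdac11 and Spata5 did not rest on replicate 1. Hdac11, a histone deacetylase, read 9.02, 8.75 and 8.20 in WT and 6.40, 6.40 and 7.43 in Ex6DEL (difference -1.91, SE 0.40), and -1.74 without Ex6DEL replicate 1. Its values in Ex6DEL replicates 1 and 2 were the same, 6.3988. A second Hdac11 probe set, near the floor, had 4.22, 5.56 and 4.35 in WT and 3.41, 4.16 and 2.56 in Ex6DEL, again without overlap. Spata5, an ATPase first described in the testis, had 10.26, 9.21 and 8.72 in WT and 7.56, 7.34 and 8.07 in Ex6DEL (difference -1.74, SE 0.48), while its other probe sets above the level differed by -0.37 and 0.30. All 12 lower genes had an adjusted p of 0.894.

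The same genes were also read by other probe sets. Of the 12 higher genes, 8 had another probe set above the level; 13 of those 14 probe sets differed in the same direction and 7 separated the groups. Of the 12 lower genes, 9 had one; 7 of those 14 probe sets differed in the same direction and 0 separated the groups. Of all genes 69.3% had a positive difference, and the 2 sets of counts were not tested against each other. None of the 24 genes turned its sign under any of the 17 settings tried (they were chosen for their size).

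The oocyte markers had the highest median difference of the 30 gene lists. Of 17 oocyte markers measured, 12 lay above the level, all 12 had a positive difference, and 7 separated the groups, against 6.95% of all genes. The median difference was 1.40, against 0.20 for all genes, and 1.06 after quantile normalization. Without Ex6DEL replicate 1 it was 0.84. None was called, and 5 had an unadjusted p under 0.05. In pooled cells a larger number of oocytes and more RNA per oocyte cannot be told apart.

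E-boxes in promoters of oocyte genes are bound by the oocyte factor FIGLA. The upstream sequences of the 3 markers that held the E-box forms CAGGTG or CACCTG are printed. Nlrp5, which also separated the groups, had 2 starts and neither of these boxes at them. The printed sequences are 250 bases before the start of the gene, from RefSeq promoters of GRCm38.p6. They read 5′ to 3′ on the strand of the gene, with CAGGTG or its complement CACCTG in capitals. Other forms of the general E-box CANNTG, such as CACGTG in Zp3, stay in lower case. Which box FIGLA binds was not tested.
Zp3, chr5:135979855-135980104, + strand: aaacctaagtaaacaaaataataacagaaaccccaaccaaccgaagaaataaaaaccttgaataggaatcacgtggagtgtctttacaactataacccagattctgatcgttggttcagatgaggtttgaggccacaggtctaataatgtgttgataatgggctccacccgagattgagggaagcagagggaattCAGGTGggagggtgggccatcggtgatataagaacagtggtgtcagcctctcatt
Padi6, chr4:140742644-140742893, - strand: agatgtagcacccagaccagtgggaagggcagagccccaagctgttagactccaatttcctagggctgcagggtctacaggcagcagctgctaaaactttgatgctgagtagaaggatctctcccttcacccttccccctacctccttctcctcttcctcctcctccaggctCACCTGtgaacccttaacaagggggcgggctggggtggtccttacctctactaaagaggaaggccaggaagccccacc
Oosp1, chr19:11691052-11691301, - strand: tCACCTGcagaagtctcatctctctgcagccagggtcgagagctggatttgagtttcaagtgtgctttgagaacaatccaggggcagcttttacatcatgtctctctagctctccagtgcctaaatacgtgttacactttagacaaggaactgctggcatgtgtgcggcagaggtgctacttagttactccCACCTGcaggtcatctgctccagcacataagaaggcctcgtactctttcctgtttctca
In these sequences the box nearest to the start began 55, 78 and 59 bases before it in Zp3, Padi6 and Oosp1. Promoters of 7 of the 12 markers were matched by symbol, with 9 starts, of which 3 held CAGGTG or CACCTG and 7 held the general E-box CANNTG on either strand, a pattern that includes the former. Of all 32851 promoters of the same length, 17.2% held CAGGTG or CACCTG and 66.2% held CANNTG. A match describes the letters only and shows no binding.

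The zona pellucida genes read as follows. Zp3 had 8.67, 8.33 and 9.32 in WT and 12.62, 9.82 and 9.46 in Ex6DEL (difference 1.86, SE 0.98). Zp2 had 8.33, 8.78 and 9.64 in WT and 11.92, 10.24 and 9.83 in Ex6DEL (difference 1.74, SE 0.71). In each the step between WT replicate 3 and Ex6DEL replicate 3 was small, 0.147 for Zp3 and 0.188 for Zp2. Without Ex6DEL replicate 1 the differences were 0.87 and 1.12. Zp1, the third zona gene here, overlapped, with Ex6DEL replicate 3 at 7.35 below WT replicate 3 at 7.68 (difference 1.42, SE 0.72).

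Gdf9, the oocyte's TGF-beta family signal to granulosa cells, had 9.62, 9.79 and 10.53 in WT and 12.38, 11.58 and 10.85 in Ex6DEL (difference 1.62, SE 0.50). Bmp15, its partner, had low values, at most 5.66, and overlapped (difference 0.53, SE 0.56). Among proteins of the egg cytoplasm, Padi6, a component of the cytoplasmic lattices, had 8.30, 8.62 and 9.44 in WT and 11.16, 10.42 and 9.66 in Ex6DEL (difference 1.63, SE 0.52). Nlrp5 had 6.95, 7.50 and 8.69 in WT and 10.05, 9.36 and 8.84 in Ex6DEL (difference 1.71, SE 0.59). Nlrp14 and Oosp1 separated the groups too, by differences of 1.39 (SE 0.48) and 0.70 (SE 0.25).

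The order of the arrays was shared by these genes. Of the 12 markers, 10 were highest in Ex6DEL replicate 1, and the mean over the 12 was 9.24, 8.41 and 8.24 in Ex6DEL replicates 1 to 3 against 7.05, 7.34 and 8.16 in WT. The gap between the groups was 0.098 to 0.319 in the 7 genes without overlap. Figla, Nobox, Mos, H1f8 and Ddx4, further oocyte markers, lay below the median level. Cell-type markers of theca and stroma also were highest in Ex6DEL replicate 1 in 12 of 13 genes, and the part of such cells in the oocyte result was not tested.

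**Figure D3:**
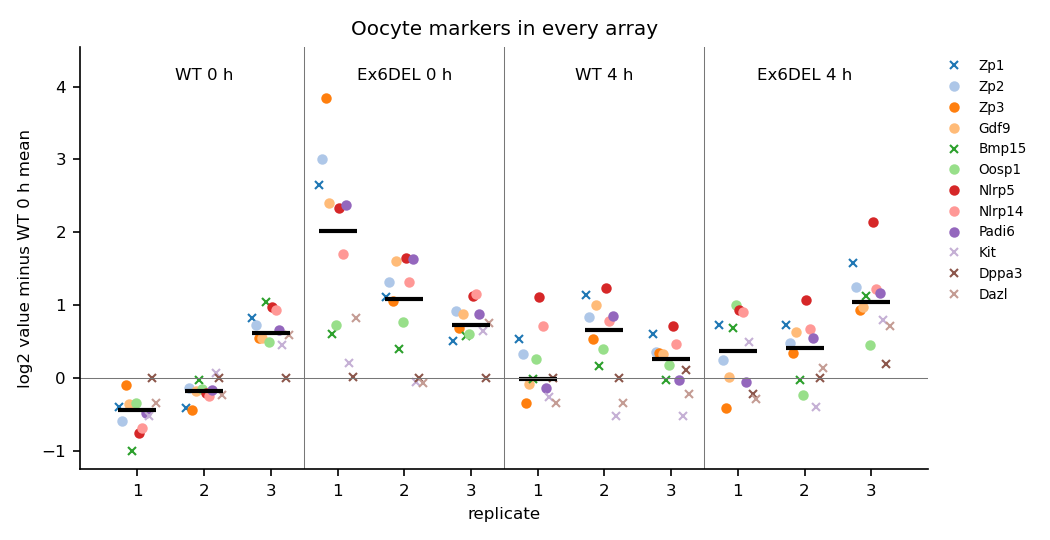
Log2 values of the 12 oocyte markers above the median level, each minus its mean over the WT 0 h arrays (y axis), in all 12 arrays (x axis, replicates within groups). Dots mark the 7 genes without overlap at 0 h, crosses the other 5, and black bars the median per array. By the mean over the 12 genes, the Ex6DEL arrays lie highest among the arrays of 0 h, led by replicate 1. The arrays of 4 h overlap between genotypes. Ex6DEL replicate 3 of 4 h had a mean of 8.56, above Ex6DEL replicates 2 and 3 of 0 h (8.41 and 8.24).

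Matrix genes followed. Of 24 extracellular matrix and basement membrane genes above the level, all 24 were positive and 6 (25%, against 6.95% of all genes) separated the groups. The median was 1.004 (0.69 quantile normalized, and 0.58 without Ex6DEL replicate 1). The mean over the list was 8.48 to 11.3 in the arrays of 0 h, around the lower limit (9.58) of the highest level bin. In that bin 351 of 2274 genes lay higher without overlap, a larger share than 6.95%, and the median difference was 0.50. Lama1, a laminin chain of the basement membrane, had 9.37, 10.19 and 10.28 in WT and 11.57, 11.02 and 10.90 in Ex6DEL (difference 1.22, SE 0.34). Col6a1, a chain of type VI collagen, had 10.85, 11.92 and 10.99 in WT and 13.62, 12.96 and 11.92 in Ex6DEL (difference 1.58, SE 0.56). WT replicate 2 and Ex6DEL replicate 3 were nearly level, and the groups did not overlap. Fn1, fibronectin, had 8.34, 9.39 and 8.28 in WT and 10.96, 9.90 and 9.43 in Ex6DEL (difference 1.43, SE 0.55).

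Hspg2, which encodes the proteoglycan perlecan, differed by 0.50 (SE 0.18), also without overlap. The fibrillar collagens Col1a1, Col1a2 and Col3a1 had larger differences, of 1.33, 1.78 and 1.41, but overlapped, and 21 of the 24 matrix genes were highest in Ex6DEL replicate 1. Several of them are made by theca and stroma as well. The 13 theca and stroma markers had a median of 0.95 (0.52 quantile normalized), which turned to -0.11 without Ex6DEL replicate 1. None of the 13 separated the groups, a count too close to the 6.95% (higher) and 2.52% (lower) of all genes to be read. The part of these markers in the matrix result was not tested. Cyp17a1, the androgen-forming enzyme of theca cells, was 15.14 in Ex6DEL replicate 1, against 9.44 and 10.40 in the other Ex6DEL arrays and 10.68, 11.59 and 11.18 in WT. Gli1, Myh11, Cnn1, Des and Thy1 of that marker list lay below the level.

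Genes of the preovulatory granulosa cell were higher in Ex6DEL on the deposited scale. All 24 members above the level were positive and 5 separated the groups (20.8%, against 6.95% of all genes), with a median of 0.95 (0.61 to 1.17 with 1 array left out). The mean over the list was 11.05 to 12.82 in the arrays of 0 h, within the highest level bin (9.58 to 17.2). In that bin 351 of 2274 genes lay higher without overlap, a larger share than 6.95%, and the median difference was 0.50. Under quantile normalization the median of the list was 0.10. Of these 24 genes 18 were highest in Ex6DEL replicate 1. Inha and Inhba, which encode inhibin and activin subunits, had 16.75, 16.31 and 16.84 and 16.37, 16.00 and 16.67 in WT. Their values in Ex6DEL were 18.18, 17.42 and 17.10 and 17.92, 17.08 and 16.94. The differences were 0.94 (SE 0.34) and 0.97 (SE 0.34), without overlap in either, and became 0.071 and -0.12 under quantile normalization. Gja1, a connexin of gap junctions, differed by 1.198 (SE 0.44), and -0.008 was left under quantile normalization.

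Hsd17b1, which converts estrone to estradiol, had 12.84, 14.02 and 14.79 in WT and 15.24, 15.12 and 14.81 in Ex6DEL (difference 1.17, SE 0.55, and 0.066 quantile normalized). Fshr, the receptor of follicle-stimulating hormone, overlapped (difference 0.72, SE 0.62, and -0.018 quantile normalized). The granulosa markers as a list, 7 genes above the level, were all positive with a median of 0.72 (0.066 quantile normalized, 0.34 without Ex6DEL replicate 1). Amh, their remaining member, lay below the level. Of the preovulatory and granulosa genes named here, Mro alone kept a difference over 1 on both scales.

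The LH response genes varied with single arrays. Their 16 members above the level had a median difference of 0.77 (0.37 quantile normalized), and 13 were highest in Ex6DEL replicate 3, whose mean over the list was 11.45 against 8.34 and 8.54 in the other Ex6DEL arrays. Without that array the median was -0.25. Rgs2, a regulator of G protein signalling, was the 1 member without overlap, at 13.72, 12.21 and 13.38 in WT and 14.30, 13.87 and 15.55 in Ex6DEL (difference 1.47, SE 0.64, and 0.99 without Ex6DEL replicate 3). Tnfaip6, of the cumulus matrix, showed the array most plainly, at 12.57 in Ex6DEL replicate 3 and 3.23 to 6.68 in the other 5 arrays of 0 h.

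Immediate early genes had the same order, with 21 of 23 highest in Ex6DEL replicate 3. Their median of 0.87 (0.68 quantile normalized) turned to -0.20 without it, and without it and WT replicate 1 together was 0.29. Jund and Ccn2, a subunit of the AP-1 factor and a matrix-associated growth factor, separated the groups with differences of 0.65 (SE 0.27, but -0.041 quantile normalized) and 1.37 (SE 0.73). The 10 cumulus matrix genes had a median of 0.78 (0.50 quantile normalized) and 0.29 without Ex6DEL replicate 3. The 9 MAPK feedback genes had a median of 0.19, which turned to -0.20 under quantile normalization and to -0.36 without Ex6DEL replicate 3.

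Steroid and sterol gene lists had positive medians on the deposited scale that turned negative under quantile normalization. The 8 genes of progesterone and estrogen synthesis above the level were all positive with a median of 0.73, and -0.22 after quantile normalization. Star, which carries cholesterol into mitochondria, ranged from 6.37 in Ex6DEL replicate 1 to 14.21 in Ex6DEL replicate 3, and from 8.22 to 12.40 in WT (difference 0.65, SE 2.65). Cyp11a1, the side-chain cleavage enzyme, had 14.30, 14.51 and 13.48 in WT and 14.12, 15.69 and 14.61 in Ex6DEL (difference 0.71, SE 0.53, but -0.34 quantile normalized). Hsd3b1, which completes progesterone synthesis, differed by 1.12 (SE 0.58) and separated the groups. The 16 cholesterol genes had a median of 0.30 (-0.26 quantile normalized), and the 8 luteal genes 0.60 (-0.16 quantile normalized).

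Signalling lists gave a mixed picture. Of 19 WNT and Notch genes above the level, 16 were positive and 5 separated the groups (26.3%, against 6.95% of all genes). The median was 0.61, 0.44 under quantile normalization and 0.35 without Ex6DEL replicate 1. Axin2, a target and inhibitor of WNT signalling, had 7.23, 6.98 and 7.72 in WT and 8.51, 7.88 and 8.02 in Ex6DEL (difference 0.83, SE 0.27, and 0.70 quantile normalized). Hes1, a target of Notch, had 6.48, 6.98 and 6.14 in WT and 7.16, 7.14 and 7.18 in Ex6DEL (difference 0.62, SE 0.23, and 0.56 quantile normalized). Notch2, a Notch receptor of granulosa cells, differed by 1.03 (SE 0.63), and Ctnnb1, beta-catenin, by 1.02 (SE 0.39), the latter turning to -0.012 under quantile normalization. The ligand gene Wnt5a stood at -0.99 (SE 0.86) with overlapping arrays.

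Of 24 genes of TGF-beta, BMP and activin signalling, 21 were positive and 2 separated the groups (8.33%, near the 6.95% of all genes), with a median of 0.34 (0.060 quantile normalized). The 2 were Gdf9, given above, and Bmpr2, a type II receptor for BMP ligands and GDF9, at 13.81, 13.98 and 14.73 in WT and 16.44, 14.88 and 14.86 in Ex6DEL (difference 1.22, SE 0.56, and 0.17 quantile normalized). Fst, the activin antagonist follistatin, overlapped (difference 1.13, SE 0.53). The 11 gap and adherens junction genes had a median of 0.29 (-0.012 quantile normalized).

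Lists of energy and protein folding genes had positive medians on the deposited scale. The 25 oxidative phosphorylation genes had a median of 0.65, with 24 positive and 6 without overlap (24% against 6.95% of all genes). The median was -0.0004 after quantile normalization and 0.39 to 0.87 with 1 array left out. The 21 heat shock and unfolded protein response genes had a median of 0.70 (0.13 quantile normalized, 0.42 to 0.90 with 1 array left out), with 7 without overlap (33.3%). Among them Hspa8, a constitutive heat shock protein, had 14.03, 14.23 and 14.53 in WT and 15.94, 15.67 and 15.06 in Ex6DEL (difference 1.29, SE 0.28, and 0.13 quantile normalized). Hspa5, the chaperone BiP, differed by 1.40 (SE 0.57). The 18 hypoxia and glycolysis genes had a median of 0.34 (-0.12 quantile normalized). The oxidative phosphorylation and heat shock lists had means of 11.07 to 12.62 and 10.11 to 11.46 in the arrays of 0 h. These lay in the highest level bin, where 351 of 2274 genes were higher without overlap, a larger share than 6.95%.

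Cell cycle lists had medians near that of all genes. The 23 mitosis genes had a median of 0.28 (0.032 quantile normalized) and the 11 D-type cyclins and inhibitors 0.11. Neither list held a gene without overlap, a count too close to the 6.95% and 2.52% of all genes to be read. The 21 DNA replication genes had a median of 0.17, and 2 lay below WT in every Ex6DEL array, against 2.52% of all genes. Ccne1, cyclin E, had 9.04, 8.77 and 8.84 in WT and 7.94, 7.99 and 8.74 in Ex6DEL (difference -0.66, SE 0.26). Fen1, a flap endonuclease, differed by -0.95 (SE 0.45). Both genes were read by _x_at probe sets. The other probe set differed by -0.21 for Ccne1 and by 0.59, the other direction, for Fen1, with overlap in each. The 3 list medians turned sign in at least 1 setting: mitosis to -0.013 without Ex6DEL replicate 1, and the other 2 to -0.027 (cyclins) and -0.13 (replication) under quantile normalization.

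Markers of surface epithelium were the list with a negative median. All 7 above the level were negative, with a median of -0.47, and -0.55 after quantile normalization. Epcam, an epithelial adhesion molecule, had 7.81, 6.93 and 6.33 in WT and 5.89, 5.55 and 6.11 in Ex6DEL (difference -1.17, SE 0.44). It was the 1 member of 7 without overlap, too small a count to be read against the 2.52% of all genes. Without WT replicate 1 and Ex6DEL replicate 3 together the median turned to 0.22. Blood and vessel markers were in part low: 11 of 21 leukocyte markers, with Ptprc and Cd68 among them, and 9 of 14 endothelial markers, with Pecam1 and Cdh5 among them, lay below the level. Others were well above the floor of 2.21, with Hbb-b2, a globin, at 9.02 to 9.73 in WT and 9.42 to 11.14 in Ex6DEL. The 10 leukocyte markers above the level had a median of 0.04 (-0.17 quantile normalized). The 5 endothelial markers had 0.29 (0.13 quantile normalized, -0.096 without Ex6DEL replicate 1) and the 3 red blood cell markers 0.33 (0.096 quantile normalized). The 11 interferon-inducible genes had a median of 0.04 (-0.19 quantile normalized). Ifih1, a sensor of viral RNA, was the 1 without overlap, at a difference of -0.70 (SE 0.18). That count of 1 in 11 is likewise too small to be read against the 2.52% of all genes.

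**Figure D4:**
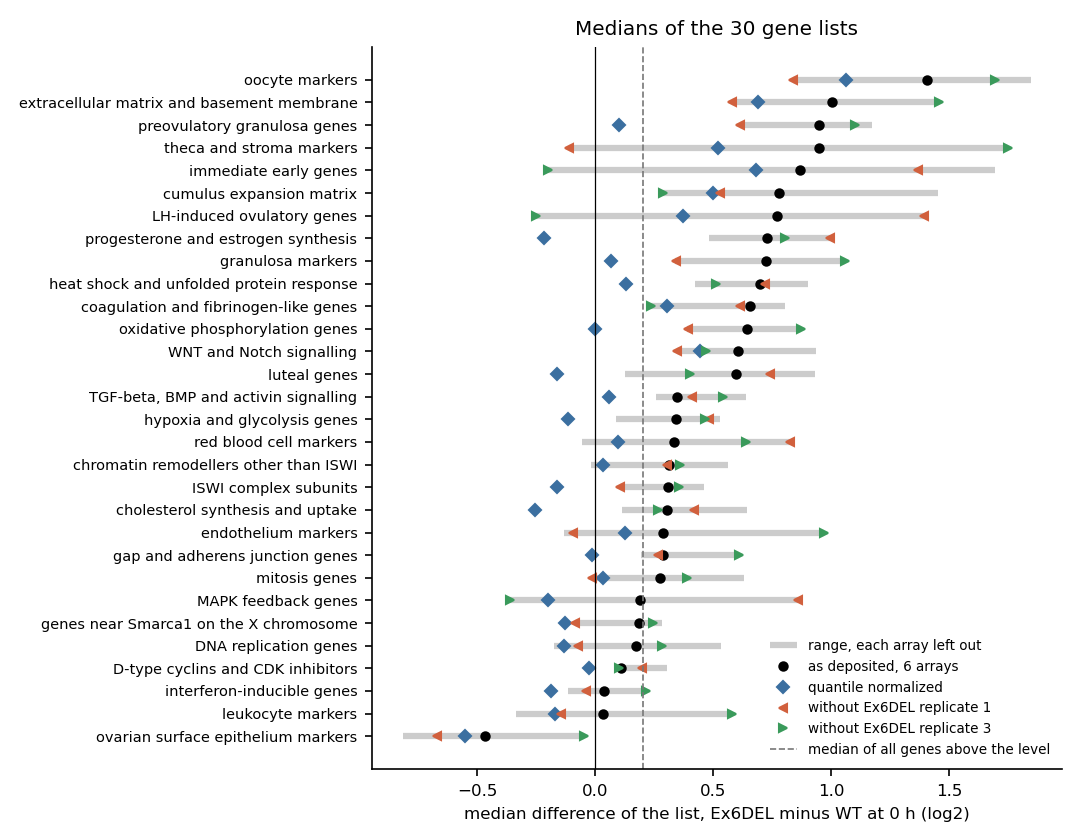
Median difference between Ex6DEL and WT at 0 h (log2, x axis) over the members above the median level of the 30 gene lists (y axis). Black dots are the deposited values, blue diamonds quantile-normalized values, triangles the values without Ex6DEL replicate 1 (orange) or 3 (green), grey bars the range with each array left out, and the dashed line the 0.20 of all genes. Oocyte markers (1.40) and matrix genes (1.004) lie above the dashed line in each of these settings. So do the WNT and Notch, cumulus matrix and coagulation lists, which fall to 0.35, 0.29 and 0.24 at the lowest. In contrast, 13 list medians turned sign under quantile normalization.

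Smarca1 lies on the X chromosome, and 30 of its 34 listed neighbours there were measured, 18 of them above the level. Their median difference was 0.19 (-0.13 quantile normalized) and 12 were positive. Gpc4, a glypican, had 11.22, 12.41 and 12.72 in WT and 13.63, 12.90 and 13.10 in Ex6DEL (difference 1.09, SE 0.48), and Thoc2, of mRNA export, differed by 0.41 (SE 0.22, but -0.13 quantile normalized), both without overlap. Within 10 Mb of the start of Smarca1 lay 40 genes above the level, by RefSeq positions. Their median was 0.19, 2 separated the groups and 0 had an unadjusted p under 0.05. The other 265 genes of the X chromosome had a median of 0.18, 19 on the higher and 6 on the lower side without overlap. Of all genes 6.95% were without overlap on the higher and 2.52% on the lower side, and the counts of the X chromosome are too close to these shares to be read. The difference between these medians was not tested.

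**Figure D5:**
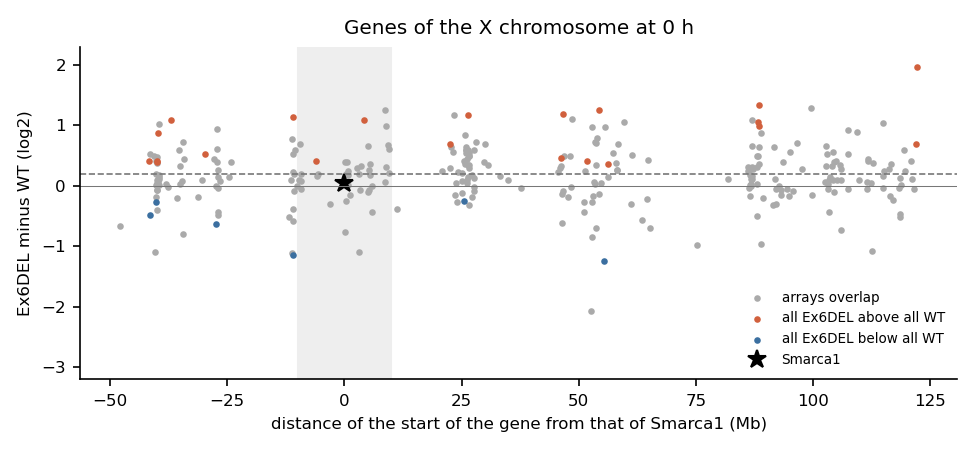
Difference between Ex6DEL and WT at 0 h (log2, y axis) for the 305 genes of the X chromosome above the median level, against the distance of their start from that of Smarca1 (Mb, x axis). The star is Smarca1 (0.04), the grey band marks 10 Mb on either side, the dashed line the median of all genes (0.20), and colours the genes without overlap, 2 of which lie in the band.

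The arrays of 4 h give the same genotypes in samples not used for the choice of genes. No gene was called there by limma, 48 were higher and 161 lower in Ex6DEL at an unadjusted p under 0.05, and the median difference was -0.12. Of the 12 largest higher genes of 0 h, 10 were higher at 4 h as well, with a median of 0.24, while of all 6300 genes higher at 0 h 27.9% were. Nedd4 had the largest difference of the 12 at 4 h, 1.05, and Masp1 and Mmp2 turned to -0.16 and -0.24. Of the 12 largest lower genes 1 was lower at 4 h, F10 at -0.36, while of all 2797 genes lower at 0 h 61.6% were.

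The oocyte markers were higher at 4 h in 11 of 12 genes, with a median of 0.26, and matrix genes in 5 of 24, with a median of -0.28. The mean over the 12 oocyte markers at 4 h was 7.85, 7.85 and 8.56 in Ex6DEL and 7.66, 8.02 and 7.71 in WT. Only Ex6DEL replicate 3 lay above all WT arrays of 4 h. Metrn stayed lower, at -0.29, while Dot1l stood at -0.02 and Mro at -0.33. The difference between the 2 times was tested in a fit of all 12 arrays. None of its 9097 genes was called (smallest limma adjusted p = 0.871), and 446 had an unadjusted p under 0.05.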

How the data were processed

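GCRMA (version not given) was used by the authors, per the submitters' processing notes, and the table they deposited is in log2 units; GCRMA corrects background, normalizes between arrays and summarises probes. The table held 45101 probe sets, with values of 2.21 to 18.2, array medians of 2.75 to 2.91, and 36.4% to 40.5% of probe sets per array within 0.1 of the floor. Of the probe sets, 34958 were paired with 1 symbol, 932 with several and 9211 with none, and the latter kinds were left out. For 9012 genes with several probe sets the one with the highest mean over 12 arrays was used. No genome build of the processing is given in the sources used here.

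A model with 2 groups of 3 arrays (4 residual and 0.47 prior degrees of freedom) was fitted to 18194 genes with limma 3.58.1 in R 4.3.3 (lmFit, eBayes). Tests were two-sided, with Benjamini-Hochberg adjustment across the 18194 genes and calls at 0.05; SE and 95% intervals are those of the model. The scripts were tested on simulated data. Named are Smarca1, Fgl2, the 12 largest differences per direction without overlap, and up to 4 members per list with the smallest p, while further members are named as examples chosen after their values were seen. The members, lists and alternatives were chosen with earlier results of these data known. The number of arrays limits the precision. The main fit did not pair arrays by replicate number. Deviations of same-numbered arrays correlated at 0.20, 0.55 and -0.03, against at most 0.031, -0.013 and 0.048 with other numbers. The same-numbered correlation was thus the higher for numbers 1 and 2, and whether the arrays were handled in pairs was not tested. A fit with the replicate number as a block is given below. Alternatives covered scaling, low values, probe sets, the error model, array weights, the samples fitted and each array left out.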

Additional observations from a re-analysis of the deposited data

How the results depend on the processing

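The count of 0 called genes stayed 0 except with array weights (2), at an adjusted p under 0.1 (2) and with 1 array left out (0 to 6, the most without WT replicate 3). The 357 genes at an unadjusted p under 0.05 became 598 with arrays shifted to one median, 687 with every probe set by itself, 873 with array weights, 635 with all 12 arrays in one fit and 779 without WT replicate 1 and Ex6DEL replicate 3, and ranged from 214 (without WT replicate 2) to 727 (without Ex6DEL replicate 3) with 1 array left out. The 861 genes without overlap became 1608 with every probe set and 3476 without those 2 arrays, and ranged from 1154 to 2404 with 1 array left out, since fewer arrays overlap less by construction. With the replicate number as a block (replicate block) 0 genes were called (smallest adjusted p 0.701) and 462 had an unadjusted p under 0.05. The median difference turned from 0.20 to -0.029 under quantile normalization. Smarca1 turned to -0.49 (quantile normalization), -0.11 (shift to one median), -0.35 (array weights) and -0.14 (without both arrays), and ranged from -0.17 to 0.23 with 1 array left out; Fgl2 then ranged from -0.20 to 2.16. Of the 30 list medians, 21 turned sign in some setting, 13 under quantile normalization and 3 under the shift. The causes of these changes were not tested. The 4 h and interaction counts stayed at 0.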
